A study of Mus musculus with 9 samples.

Results

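The transcription factors set out here, Snai1, Snai2, Twist1, Twist2, Zeb1, Zeb2, Prrx1 and Foxc2, are the ones best known for driving epithelial cells into a mesenchymal state. They are 8 genes chosen by symbol from a table of 24012 genes, and 7 of them had a row, while Zeb1 was not analysed here. Bulk RNA-seq compared 3 groups of pancreatic ductal adenocarcinoma cells taken from mouse lungs after tail vein injection, with 3 libraries in each group. The DTC libraries (DTC 1, 2 and 3) were cells sorted on GFP alone and labelled 5 days. The mCherryHigh libraries (mCherryHigh 1, 5 and 6) and the mCherryLow libraries (mCherryLow 1, 5 and 6) were GFP-positive cells sorted by a high or low signal of a Gstt1-mCherry reporter, and labelled 6 weeks. All 3 groups carried one and the same genotype label, which includes SIRT6F/F, p53F/+ and p48-Cre, a Cre driver of the pancreatic lineage, so that no group differed from another in genotype. The labels do not give the age of the mice, and they leave it unsaid whether the 3 libraries in a group are 3 mice, so that the p-values here measure the spread between these libraries, which may be technical.

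In the epithelial to mesenchymal transition, cells lose the junctions and polarity of an epithelium and take on the motility and matrix genes of mesenchyme. The zinc-finger proteins of the Snail and ZEB families bind short E-box sequences and repress genes such as Cdh1, which encodes E-cadherin. The basic helix-loop-helix proteins Twist1 and Twist2 bind E-boxes together with E-protein partners, Prrx1 is a paired-class homeodomain protein, and Foxc2 is a forkhead protein. All of them work in the normal mesenchyme of the embryo, and Prrx1 and Twist2 are also known from fibroblasts, while Zeb2 is also known from macrophages, lymphocytes and endothelium.

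Library totals ran from 923988 to 2052620 reads in DTC, from 643748 to 9800170 in mCherryHigh and from 2051270 to 11861200 in mCherryLow. Levels are in CPM, reads scaled to a common library total, so that 1 read was worth 0.487 to 1.08 CPM in DTC libraries but 0.102 CPM in mCherryHigh 5 and 6. Intervals are 95% exact Poisson intervals. What a 0 allows is given as the level of 3 reads, which lies below the upper end of that interval (4.66 against 5.73 CPM in mCherryHigh 1). The intervals and the 3-read limits cover counting error only. The DTC libraries shared a code series in the labels (CFa14) that no other library had, so that series, time, sort gate and the DTC state cannot be told apart. DTC 3 stood apart within its group, with Krt18, a keratin of ductal cells, at 169 CPM against 3014 and 3046 CPM in DTC 1 and 2, and mCherryHigh 1 was the shallowest library.

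Prrx1 was the one factor of the 5 tested that passed in any comparison. Over all genes tested, 43.1% passed in DTC minus mCherryLow and 30.2% in DTC minus mCherryHigh. Prrx1 averaged 84.5 ± 28.9 CPM in DTC, 5.48 ± 2.64 CPM in mCherryHigh and 5.06 ± 3.16 CPM in mCherryLow (SD, n = 3 each), and it rose in DTC against both. Zeb2 was read at 65.5 CPM or more in every library, and its differences did not pass the test. Twist2, Snai2 and Snai1 were read at 39.6 CPM or less, with libraries of one group far apart. Foxc2 and Twist1 were at the edge of detection. Between mCherryHigh and mCherryLow, none of the 5 members tested passed, nor did any of the 15437 genes tested.

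**Figure D1:**
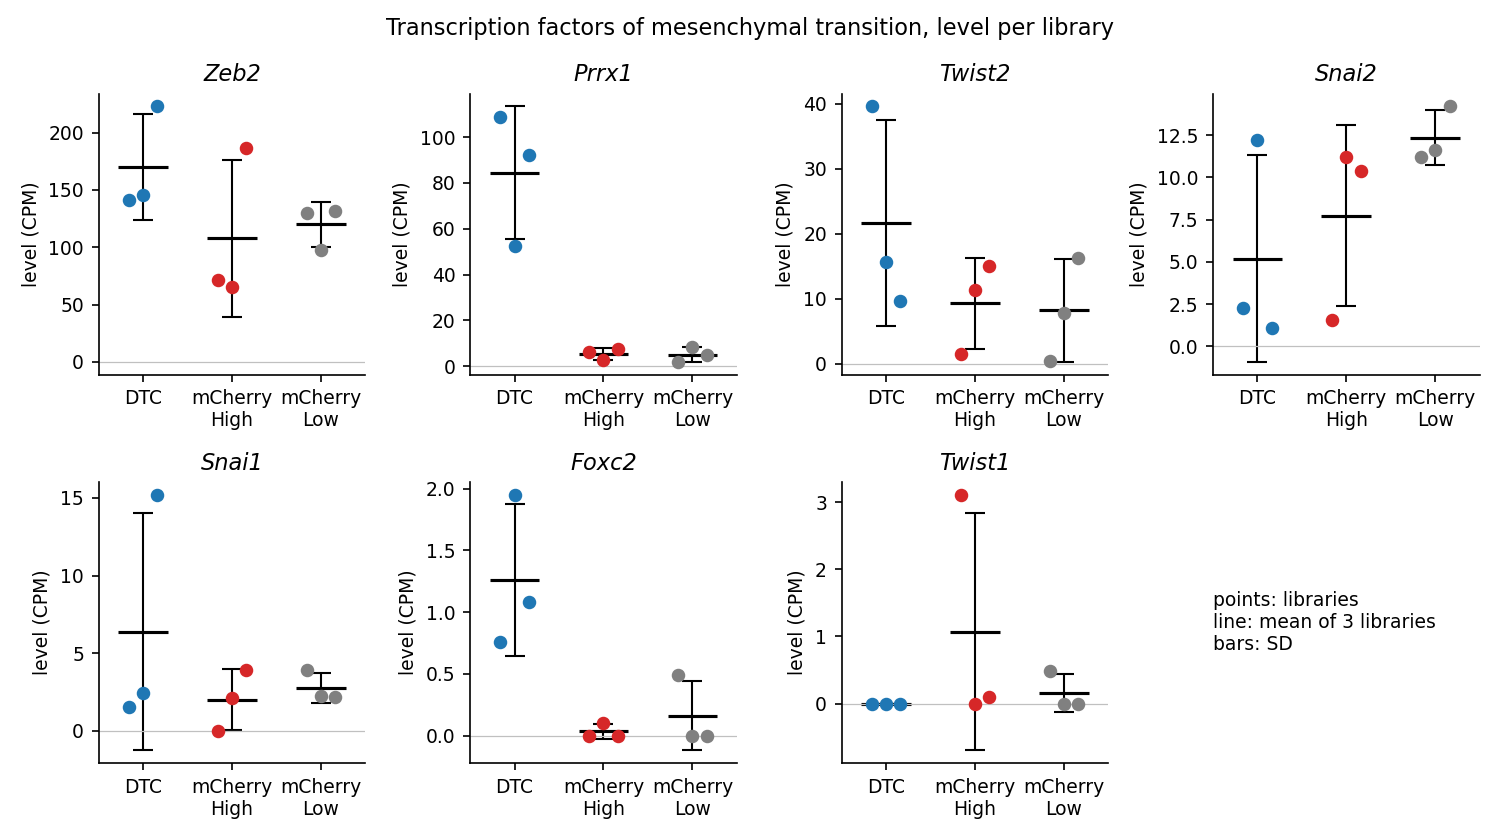
Level of each of the 7 factors in CPM (vertical axis, a scale of its own per panel) in the DTC, mCherryHigh and mCherryLow libraries, with points for libraries, a line for the mean and bars for the SD over 3 libraries. The 3 DTC points of Prrx1 lie between 52.6 and 109 CPM, above all 6 others, while the points of Zeb2, Twist2, Snai2 and Snai1 overlap between DTC and mCherryHigh.

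Prrx1 (ENSMUSG00000026586) is a homeodomain factor of limb and head mesenchyme that in tumour cells has been tied to spreading. It was read at 109, 52.6 and 92.0 CPM in DTC 1, 2 and 3, at 6.21, 2.55 and 7.67 CPM in mCherryHigh 1, 5 and 6, and at 1.95, 8.26 and 4.97 CPM in mCherryLow 1, 5 and 6. All DTC libraries lay above all others, while mCherryHigh and mCherryLow overlapped. Over all genes tested, every DTC library was above every mCherryLow library for 39.0%, and above every mCherryHigh library for 31.4%. The lowest DTC value of Prrx1, 52.6 CPM in DTC 2 (43.2 to 63.5), rests on 108 reads, and the highest of the other 6, 8.26 CPM in mCherryLow 5 (6.63 to 10.2), on 88 reads. These intervals did not overlap.

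All differences are on the log2(CPM + 1) scale. Against mCherryLow, Prrx1 rose by 3.90 (SE 0.56, limma adjusted p = 0.000545), which is a fold of 15 in CPM + 1. Against mCherryHigh it rose by 3.76 (SE 0.55, limma adjusted p = 0.00188), a fold of 13.5. These comparisons share the DTC libraries. Many genes were higher in DTC, with a median over all genes tested of 0.59 against mCherryLow and 0.55 against mCherryHigh, and relative to these medians the differences of Prrx1 were 3.31 and 3.21. By p it stood at place 536 of 18701 genes against mCherryLow and at place 258 of 19700 against mCherryHigh. Between mCherryHigh and mCherryLow, Prrx1 differed by 0.15 (SE 0.63, limma adjusted p = 0.974), and its sign turned with the scaling, to -0.17 with quantile normalization.

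The stretch of 300 bases around the RefSeq start of Prrx1 is shown because it is the promoter of the one factor that passed the test. It lies on the minus strand at chr1:163313601-163313900 (GRCm38.p6) and runs from 250 bases before the start to 50 after it. TAATTA, the palindromic core bound by paired-class homeodomains, is in capitals and begins 173 bases before the start.
Prrx1: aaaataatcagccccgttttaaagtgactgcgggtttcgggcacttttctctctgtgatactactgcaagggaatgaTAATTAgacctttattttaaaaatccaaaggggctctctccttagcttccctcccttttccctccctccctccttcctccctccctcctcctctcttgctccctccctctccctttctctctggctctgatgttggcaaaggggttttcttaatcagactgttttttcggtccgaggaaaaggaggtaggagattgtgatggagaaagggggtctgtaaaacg
TAATTA was in 1 of 8 promoters listed for 5 of the factors, and in 5.29% of all 32851 promoters of the table. The letters describe the window and say nothing of binding.

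The Snail family pair was low in every group. Snai2 (ENSMUSG00000022676), also called Slug, is a repressor known from the neural crest and from basal epithelium. It stood at 2.28, 12.2 and 1.08 CPM in DTC 1, 2 and 3, at 1.55, 11.2 and 10.4 CPM in mCherryHigh 1, 5 and 6, and at 11.2, 11.6 and 14.2 CPM in mCherryLow 1, 5 and 6. DTC 1, DTC 3 and mCherryHigh 1 were low, on 3, 1 and 1 reads, while DTC 2 lay within the range of mCherryLow. The difference of DTC minus mCherryLow was -1.57 (SE 0.71, limma adjusted p = 0.0953), which did not pass over all genes. It did pass with quantile normalization (-2.65, limma adjusted p = 0.0252), with median-of-ratios scaling (-1.86, limma adjusted p = 0.0472) and without DTC 2 (-2.34, limma adjusted p = 0.0193). It was -1.01 without DTC 3. Against mCherryHigh, the DTC difference was -0.66 (SE 0.89, limma adjusted p = 0.6), and from -1.44 without DTC 2 to -0.11 without DTC 3.

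Snai1 (ENSMUSG00000042821), the founding repressor of the family and a short-lived protein, was read at 1.52, 2.44 and 15.2 CPM in DTC 1, 2 and 3. The mCherryHigh libraries 1, 5 and 6 had 0, 2.14 and 3.89 CPM, and the mCherryLow libraries 1, 5 and 6 had 3.90, 2.25 and 2.19 CPM. DTC 3 was high, at 15.2 CPM (8.28 to 25.4) on 14 reads, and the other 8 libraries overlapped. The 0 in mCherryHigh 1 allows up to 4.66 CPM. The difference of DTC minus mCherryLow was 0.49 (SE 0.72, limma adjusted p = 0.609), but it was -0.33 without DTC 3 and -1.22 with quantile normalization. Against mCherryHigh, DTC differed by 1.06 (SE 0.87, limma adjusted p = 0.376), by -0.35 with quantile normalization, by 0.24 without DTC 3 and by 0.41 without mCherryHigh 1.

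Zeb2 (ENSMUSG00000026872), a large zinc-finger repressor with a homeodomain-like segment and a partner of Smad proteins, is known to repress Cdh1. Its levels were 141, 146 and 223 CPM in DTC 1, 2 and 3, 71.5, 65.5 and 187 CPM in mCherryHigh 1, 5 and 6, and 130, 97.6 and 132 CPM in mCherryLow 1, 5 and 6. Every DTC library lay above every mCherryLow library, by as little as 141 against 132 CPM, whereas mCherryHigh 6 lay above DTC 1 and 2. The difference was 0.48 for DTC minus mCherryLow (SE 0.35, limma adjusted p = 0.282), and -0.02 with edgeR. It was 0.27 without DTC 3. For DTC minus mCherryHigh it was 0.79 (SE 0.45, limma adjusted p = 0.203), and from 0.52 without mCherryHigh 5 to 1.27 without mCherryHigh 6. Relative to the median of all genes, these were -0.11 and 0.24. Between mCherryHigh and mCherryLow, Zeb2 differed by -0.31 (SE 0.42, limma adjusted p = 0.881), with mCherryHigh 6 above and mCherryHigh 1 and 5 below all mCherryLow libraries.

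Zeb2 shares exons with an antisense gene, Zeb2os, which the table lists as Gm13476. Since counting by strand is not stated, reads of one could enter the other. Zeb2os itself was read at 16, 7.31 and 14.1 CPM in DTC 1, 2 and 3, at 1.55, 2.04 and 2.45 CPM in mCherryHigh 1, 5 and 6, and at 3.41, 0.845 and 1.52 CPM in mCherryLow 1, 5 and 6. It was thus higher in all DTC libraries than in all others, but on 21, 15 and 13 reads against 185, 300 and 206 reads of Zeb2.

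Twist2 (ENSMUSG00000007805), also called Dermo1, is a factor of dermal and bone precursors. Its values were 39.6, 15.6 and 9.74 CPM in DTC 1, 2 and 3, then 1.55, 11.3 and 15.1 CPM in mCherryHigh 1, 5 and 6, and 0.488, 7.89 and 16.3 CPM in mCherryLow 1, 5 and 6. DTC 1 was the highest library and the libraries numbered 1 of both sorted groups the lowest, on 1 read each, and all groups overlapped. The difference of DTC minus mCherryLow was 1.66 (SE 0.87, limma adjusted p = 0.141), and it passed without mCherryLow 6 (2.41, limma adjusted p = 0.0487). It was 0.64 without mCherryLow 1. DTC minus mCherryHigh was 1.28 (SE 0.81, limma adjusted p = 0.253), 0.46 without mCherryHigh 1 and 0.74 without DTC 1. Between the sorted groups the difference was 0.38 (SE 1.07, limma adjusted p = 0.958), and -0.63 without mCherryLow 1. An opposite-strand gene, Gm29100, which has no row here, overlaps Twist2. In the Twist2 transcript 54.3% of 50-base windows were unique, or 100% when overlapping genes were left aside. The reads of Twist2 are thus uncertain if strand was not used, and could include those of Gm29100.

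Foxc2 (ENSMUSG00000046714), a forkhead factor of lymphatic vessels and mesenchyme, was seen in every DTC library, at 0.761, 1.95 and 1.08 CPM in DTC 1, 2 and 3 on 1, 4 and 1 reads. In mCherryHigh 1, 5 and 6 it was at 0, 0.102 and 0 CPM, and in mCherryLow 1, 5 and 6 at 0.488, 0 and 0 CPM, with 1 read in each group. Every DTC value was above every other value, yet the 0 of mCherryHigh 1 allows up to 4.66 CPM. Twist1 (ENSMUSG00000035799), the close relative of Twist2 that acts in cranial mesenchyme, had 0 reads in DTC, which allows up to 2.28, 1.46 and 3.25 CPM in DTC 1, 2 and 3. It had 3.11, 0 and 0.102 CPM in mCherryHigh 1, 5 and 6 and 0.488, 0 and 0 CPM in mCherryLow 1, 5 and 6. Those values rest on 3 reads and 1 read. Neither gene passed the filter on low values (1 CPM in 3 of 6 libraries) in any comparison, so they were not tested.

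Levels of different genes can be set beside each other once divided by transcript length, in CPM per kb of the longest annotated coding transcript. In DTC, Zeb2 averaged 18.6 ± 5.04 CPM per kb, Prrx1 12.9 ± 4.42, Twist2 8.57 ± 6.26, Snai1 3.93 ± 4.70 and Snai2 2.56 ± 3.01 (SD, n = 3), followed by Foxc2 at 0.464 and Twist1 at 0 CPM per kb. The mCherryHigh order was Zeb2 at 11.8 ± 7.48, Snai2 at 3.83 ± 2.66, Twist2 at 3.70 ± 2.77, Snai1 at 1.24 ± 1.2 and Prrx1 at 0.839 ± 0.404 CPM per kb. In mCherryLow it was Zeb2 at 13.1 ± 2.11, Snai2 at 6.11 ± 0.789, Twist2 at 3.25 ± 3.13, Snai1 at 1.72 ± 0.598 and Prrx1 at 0.776 ± 0.484 CPM per kb.

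Zeb2 came first in every library but DTC 1, where Prrx1 (16.7 CPM per kb) and Twist2 (15.7 CPM per kb) stood above it (15.4 CPM per kb). Prrx1 took 27.5% of the summed level of the 7 factors in DTC, 3.80% in mCherryHigh and 3.09% in mCherryLow. Snai2 took 5.44% of it in DTC, 17.3% in mCherryHigh and 24.3% in mCherryLow. Among the 5 tested factors, the SD ranges of neighbours in these orders overlapped, except those of Zeb2 and Snai2 in mCherryLow. Twist1 and Foxc2 averaged 0.657 and 0.0125 CPM per kb in mCherryHigh, and 0.0998 and 0.0596 CPM per kb in mCherryLow.

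**Figure D2:**
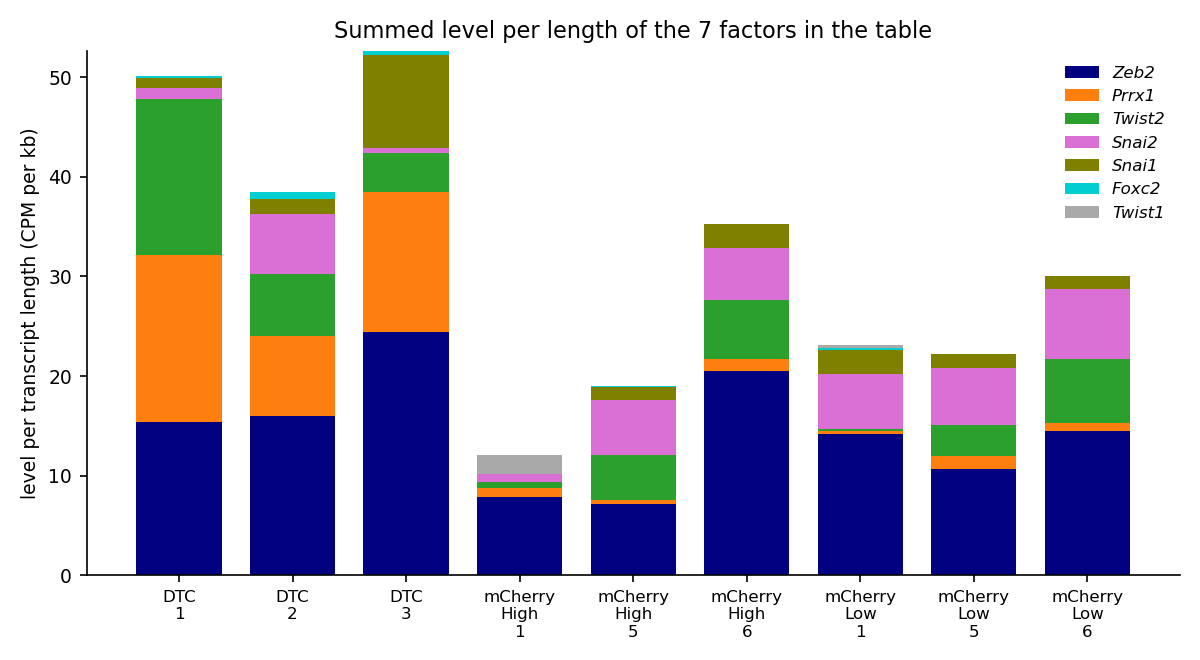
Level per transcript length (CPM per kb, vertical axis) of the 7 factors, stacked for each of the 3 DTC, 3 mCherryHigh and 3 mCherryLow libraries. Zeb2 is the largest block in every library but DTC 1, and the Prrx1 block, 8.06 to 16.7 CPM per kb in DTC, is 1.27 CPM per kb or less in the other 6 libraries.

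DTC and mCherryLow were compared to ask how cells recovered early after injection differ from reporter-low cells of established metastases. Of 5 members tested, 1 was called higher (Prrx1) and 0 lower, where 43.1% of all genes tested were called, 34.2% higher and 8.87% lower. Among these 5, every DTC library lay above every mCherryLow library for Prrx1 and Zeb2, where 39.0% of all genes tested did so, and for none did every DTC library lie below, where 14.2% did (53.2% in either direction). The median difference of the 5 members was 0.49, beside 0.59 over all genes. With quantile normalization 2264 genes were called higher and 2036 lower, against 6405 and 1659 as deposited, so the share of higher calls depends on the scaling.

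The comparison of DTC with mCherryHigh sets the same early cells beside reporter-high cells. Again 1 of 5 members was called higher (Prrx1) and 0 lower, where 30.2% of all genes tested were called, 23.0% higher and 7.19% lower. Among the 5 tested, Prrx1 was the one with every DTC library above every mCherryHigh library, which held for 31.4% of all genes tested, and none had every DTC library below, which held for 13.2% (44.7% in either direction). The member median was 1.06, beside 0.55 over all genes. Quantile normalization gave 1615 genes higher and 1535 lower, against 4532 and 1417 as deposited.

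The comparison of mCherryHigh with mCherryLow asks what goes with a high reporter signal among established cells. Here 0 of 5 members were called, and 0% of all 15437 genes tested, by limma and by edgeR, with 1448 and 1221 genes at an unadjusted p under 0.05, while DESeq2 called 148 genes and no member. No member had its groups apart, where 15.9% of all genes did, 10.2% with mCherryHigh above and 5.78% with it below. The differences ran from -0.90 for Snai2 to 0.38 for Twist2, with SEs of 0.42 to 1.07. That of Snai2 was -0.17 without mCherryHigh 1, and that of Zeb2 ran from -0.79 without mCherryHigh 6 to -0.04 without mCherryHigh 5. Within the code series CFa12, mCherryHigh 5 had 11.2 CPM of Snai2 against 11.6 and 14.2 CPM in mCherryLow 5 and 6. Within CFa10, mCherryHigh 1 had 1.55 CPM against 11.2 CPM in mCherryLow 1, and mCherryHigh 6 was alone in its series.

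**Figure D3:**
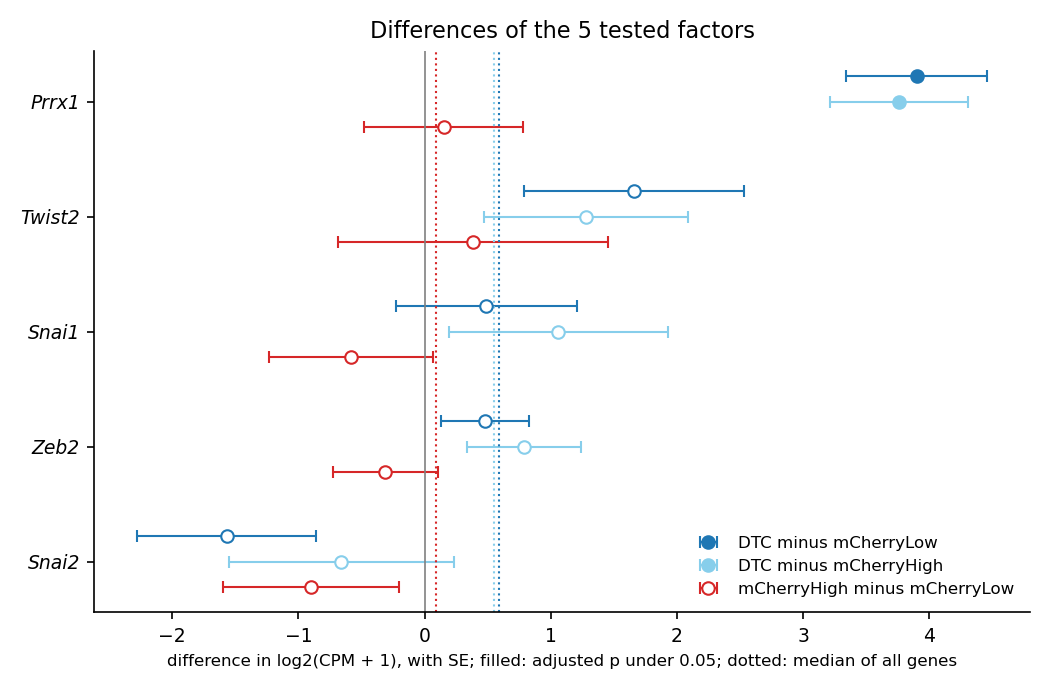
Difference in log2(CPM + 1) of the 5 tested factors (horizontal axis, with SE bars) for DTC minus mCherryLow, DTC minus mCherryHigh and mCherryHigh minus mCherryLow, with filled points for a limma adjusted p under 0.05 and dotted lines for the median of all genes. Prrx1 alone has filled points, at 3.90 and 3.76, while the sign of Snai1 in both DTC comparisons turns with quantile normalization and that of Zeb2 in DTC minus mCherryLow with edgeR.

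Other transcription factors linked to the transition moved in both directions in DTC. Of 17 tested against mCherryLow, 3 rose and 3 fell, and against mCherryHigh 1 of 18 rose and 3 fell. Over all genes tested, 34.2% rose and 8.87% fell against mCherryLow, and 23.0% rose and 7.19% fell against mCherryHigh. With 1 library left out, 1 rose and 1 fell against mCherryLow without DTC 1, 2 rose and 0 fell without mCherryLow 6, and none rose against mCherryHigh without DTC 1, DTC 2 or mCherryHigh 5. Hmga2, a DNA-bending chromatin protein that acts upstream of Snai1 in TGF-beta responses, had 179, 225 and 68.2 CPM in DTC 1, 2 and 3, 48.2, 13.3 and 45.2 CPM in mCherryHigh 1, 5 and 6, and 15.1, 20.1 and 13.5 CPM in mCherryLow 1, 5 and 6. It rose by 3.05 against mCherryLow (SE 0.49, limma adjusted p = 0.00081) and by 2.15 against mCherryHigh (SE 0.58, limma adjusted p = 0.019), and the call against mCherryHigh held under 14 of 17 alternatives.

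Id1 and Id3, which lack a DNA-binding region and trap the E-protein partners of Twist, fell in DTC. Id1 averaged 28.4 ± 4.52 CPM in DTC, 127 ± 29.7 in mCherryHigh and 74.0 ± 18.3 in mCherryLow (SD, n = 3 each). That is -2.10 against mCherryHigh (limma adjusted p = 0.004) and -1.33 against mCherryLow (limma adjusted p = 0.0181). Id3 averaged 22.8 ± 3.24, 81.7 ± 17.5 and 64.0 ± 14.7 CPM in DTC, mCherryHigh and mCherryLow, or -1.79 and -1.43 (limma adjusted p = 0.00879 and 0.0143). No library of DTC overlapped the sorted groups for either gene. Against mCherryLow the calls held under 15 of 17 alternatives each, that of Id1 being lost without mCherryLow 1 or 6 and that of Id3 without DTC 1 or mCherryLow 6. Sox9, a factor of ductal progenitors, rose by 1.47 against mCherryLow (limma adjusted p = 0.0193), a call held under 13 of 17 alternatives, and Runx1 fell by 1.12 against mCherryHigh (limma adjusted p = 0.0271), a call held under 11 of 17.

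The E proteins that pair with Twist split. Tcf3 averaged 73.2 ± 38.8 CPM in DTC, 122 ± 4.21 in mCherryHigh and 166 ± 33.8 in mCherryLow, and fell by 1.32 against mCherryLow (limma adjusted p = 0.0351), a call held under 10 of 17 alternatives. Tcf4 averaged 103 ± 39.0, 46.9 ± 18.2 and 45.5 ± 11.5 CPM in DTC, mCherryHigh and mCherryLow, a rise of 1.13 against mCherryLow (limma adjusted p = 0.0421) that held under 3 of 17. Tcf12 averaged 37.3 ± 7.28 CPM in DTC, 46.7 ± 21.7 in mCherryHigh and 55.8 ± 21.1 in mCherryLow and passed in no comparison.

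Among 20 cofactors and partners tested, 1 rose and 3 fell in DTC against mCherryLow, and 1 rose and 0 fell against mCherryHigh. The shares over all genes were 34.2% rising and 8.87% falling, and 23.0% and 7.19%. Without DTC 1 or DTC 3, 0 rose and 1 fell against mCherryLow, and without DTC 1 or DTC 2 none was called against mCherryHigh. Kdm1a, the histone demethylase that Snail recruits, was at 62.1 ± 21.5 CPM in DTC and 169 ± 45.7 CPM in mCherryLow (-1.46, limma adjusted p = 0.011, lost with quantile normalization and without mCherryLow 6). Eed, a subunit of the Polycomb complex that methylates histones, differed by -1.16 (limma adjusted p = 0.0462), a call held under 7 of 17 alternatives. Suv39h1, a histone methyltransferase, was at 60.7 ± 44.2 CPM in DTC and 6.16 ± 5.54 CPM in mCherryHigh (3.47, limma adjusted p = 0.0167), with 0 CPM in mCherryHigh 1. That call held under 13 of 17 alternatives. Suv39h1 was not called against mCherryLow, where libraries 1, 5 and 6 had 68.3, 12.8 and 6.24 CPM. Its DTC libraries 1, 2 and 3 had 47.2, 110 and 24.9 CPM.

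Of 15 regulators of the stability of these proteins, 1 rose and 1 fell in DTC against either sorted group. The shares over all genes were 34.2% rising and 8.87% falling against mCherryLow, and 23.0% and 7.19% against mCherryHigh. Against mCherryHigh none fell without DTC 1 or mCherryHigh 5 and 3 fell without DTC 3, and against mCherryLow 2 fell without DTC 2 or DTC 3 and 2 rose without mCherryLow 5. Fbxw7, a substrate receptor of a ubiquitin ligase, averaged 110 ± 18.4 CPM in DTC, 31.3 ± 10.7 in mCherryHigh and 23.1 ± 7.86 in mCherryLow, and rose by 1.82 against mCherryHigh and 2.24 against mCherryLow (limma adjusted p = 0.00835 and 0.00139). Akt1, the kinase that restrains GSK3 and so the breakdown of Snail, averaged 166 ± 70.1, 414 ± 11.1 and 690 ± 15.1 CPM in DTC, mCherryHigh and mCherryLow, and fell against both, with differences of -1.41 against mCherryHigh (limma adjusted p = 0.0193, held under 13 of 17 alternatives) and -2.15 against mCherryLow (limma adjusted p = 0.00125). Usp11, a deubiquitinase, differed by -1.90 against mCherryHigh (limma adjusted p = 0.053).

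Signals that induce the factors were mostly lower where they passed. Of 20 genes, 2 rose and 3 fell in DTC against mCherryLow, and 0 rose and 4 fell against mCherryHigh. The shares over all genes were 34.2% rising and 8.87% falling, and 23.0% and 7.19%. Without DTC 1, 0 rose and 1 fell in each comparison, and 2 fell against mCherryHigh without mCherryHigh 5. The receptor kinase Axl averaged 153 ± 28.6 CPM in DTC, 587 ± 83.4 in mCherryHigh and 730 ± 180 in mCherryLow, and fell against both, with differences of -1.94 and -2.23 (limma adjusted p = 0.00275 and 0.00062) and no overlap. Tgfb1, the main inducing ligand, was at 107 ± 38.6 CPM in DTC and 344 ± 130 CPM in mCherryHigh (-1.67, limma adjusted p = 0.0115), and its receptor Tgfbr1 differed by -1.25 (limma adjusted p = 0.0245). Smad2, which carries the signal to the nucleus, fell by 1.42 against mCherryLow (limma adjusted p = 0.0145), and Egfr, a growth factor receptor, fell by 1.60 against mCherryHigh (limma adjusted p = 0.0333), while the calls of Tgfbr1 and Egfr held under 11 of 17 alternatives each and those of Tgfb1 and Smad2 were lost without DTC 1. Egfr was not called against mCherryLow. It had 43.4, 58 and 49.8 CPM in DTC 1, 2 and 3 and 20, 45.9 and 23.4 CPM in mCherryLow 1, 5 and 6. In mCherryHigh 1, 5 and 6 it had 172, 302 and 69.7 CPM. The ligand Wnt5a and the cytokine Il6 rose by 1.67 and 1.82 against mCherryLow (limma adjusted p = 0.0332 and 0.041), calls that held under 6 and 7 of 17 alternatives.

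Epithelial genes that the factors are known to repress did not move as a block. Of 23 tested against mCherryLow, 3 rose and 2 fell in DTC, with a median of 0.54 beside 0.59 over all genes. Against mCherryHigh, 2 of 25 rose and 3 fell, with a median of 0.07 beside 0.55. The shares over all genes were 34.2% rising and 8.87% falling against mCherryLow, and 23.0% and 7.19% against mCherryHigh. These splits turned with the scaling, to 0 rising and 3 and 4 falling with quantile normalization, and with 1 library left out to as few as 1 rising and 0 falling against mCherryLow (without mCherryLow 1) and 0 rising and 1 falling against mCherryHigh (without mCherryHigh 5). Cdh1 had 58.6, 67.7 and 29.2 CPM in DTC 1, 2 and 3, 73.0, 123 and 139 CPM in mCherryHigh 1, 5 and 6, and 99.5, 36.7 and 94.6 CPM in mCherryLow 1, 5 and 6. Every mCherryHigh library was above every DTC library, while mCherryLow overlapped both. Cdh1 differed by -1.13 against mCherryHigh (SE 0.44, limma adjusted p = 0.0749) and by -0.52 against mCherryLow (SE 0.49, limma adjusted p = 0.419).

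Cldn4, a claudin of tight junctions, was nearly unread in DTC, with 0.761, 0 and 0 CPM in DTC 1, 2 and 3, which is 1 read in all. The mCherryHigh libraries 1, 5 and 6 had 65.2, 62.2 and 40.6 CPM and the mCherryLow libraries 1, 5 and 6 had 2.93, 9.20 and 31.8 CPM. DTC lay under every other library. Cldn4 fell by 5.53 against mCherryHigh (limma adjusted p = 0.000871) and fell by 3.18 against mCherryLow (limma adjusted p = 0.00502), sizes that depend on the added 1 CPM since DTC holds 1 read. Elf3, an epithelial ETS factor, and Llgl2, a polarity protein, fell against mCherryHigh, with differences of -3.98 and -2.41 (limma adjusted p = 0.012 and 0.0174), calls held under 16 and 14 of 17 alternatives. Going the other way, the splicing factor Esrp1 averaged 26.1 ± 28.2 CPM in DTC, 1.79 ± 1.53 in mCherryHigh and 1.63 ± 0.579 in mCherryLow, and rose by 2.94 against mCherryHigh and 2.85 against mCherryLow (limma adjusted p = 0.0262 and 0.00965), with DTC 3 the highest at 58.4 CPM. The Esrp1 call against mCherryHigh held under 11 of 17 alternatives.

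Promoters of Cldn4 and of Crb3, which encodes an apical polarity protein, are shown because each holds more than one copy of the E-box that Snail and ZEB proteins bind, CAGGTG, which reads CACCTG on the other strand (both in capitals). Both windows run from 250 bases before the RefSeq start to 50 after it in GRCm38.p6. The Cldn4 window is on the minus strand at chr5:134946885-134947184, with E-boxes that begin 14 bases before the start and at base 11. The Crb3 window is on the plus strand at chr17:57061951-57062250, with E-boxes that begin 118, 63 and 7 bases before the start and at base 25.
Cldn4: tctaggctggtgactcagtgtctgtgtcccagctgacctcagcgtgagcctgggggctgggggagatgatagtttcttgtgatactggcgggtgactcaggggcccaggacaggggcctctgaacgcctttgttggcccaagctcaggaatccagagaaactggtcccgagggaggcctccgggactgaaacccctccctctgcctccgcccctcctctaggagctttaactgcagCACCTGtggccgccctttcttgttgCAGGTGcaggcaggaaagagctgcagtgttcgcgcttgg
Crb3: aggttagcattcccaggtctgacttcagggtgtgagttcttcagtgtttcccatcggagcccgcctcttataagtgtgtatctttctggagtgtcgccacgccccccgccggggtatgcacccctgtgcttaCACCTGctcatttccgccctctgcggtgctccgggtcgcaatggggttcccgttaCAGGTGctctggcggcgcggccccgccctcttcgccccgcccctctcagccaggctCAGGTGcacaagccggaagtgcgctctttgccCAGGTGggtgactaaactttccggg
Crb3 was at 1.52, 0.487 and 0 CPM in DTC 1, 2 and 3, at 7.77, 3.67 and 2.97 CPM in mCherryHigh 1, 5 and 6, and at 0.975, 1.41 and 1.01 CPM in mCherryLow 1, 5 and 6 (DTC minus mCherryHigh -1.81, SE 0.65, limma adjusted p = 0.0547). The E-box was in 18 of 21 promoters listed for 16 genes of the epithelial list, in 1 of 14 promoters of the mesenchymal list and in 20.2% of all 32851 promoters. The epithelial genes were listed as known targets of such repression, so their share is a description of the list. Among the 8 promoters of the factors themselves, 1 held it.

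Mesenchymal genes that go with the factors were split as well. Of 24 tested, 5 rose and 2 fell in DTC against mCherryLow, with a median of -0.33 beside 0.59 over all genes, and 4 rose and 4 fell against mCherryHigh, with a median of -0.61 beside 0.55. Over all genes, 34.2% rose and 8.87% fell against mCherryLow, and 23.0% and 7.19% against mCherryHigh. Without DTC 1 the counts of this list were 2 rising and 1 falling, and 1 rising and 3 falling, and with quantile normalization 2 and 3, and 1 and 5. Against mCherryLow 3 rose without DTC 2, DTC 3, mCherryLow 1 or mCherryLow 6, and against mCherryHigh 1 rose without mCherryHigh 6 and 2 without mCherryHigh 5. The collagen chain Col1a2 had 81.4, 28.7 and 45.5 CPM in DTC 1, 2 and 3, 4.66, 3.88 and 5.73 CPM in mCherryHigh 1, 5 and 6, and 0.975, 2.63 and 5.23 CPM in mCherryLow 1, 5 and 6. It was higher in every DTC library than in any other, as was Prrx1, and rose by 3.09 and 3.77 against mCherryHigh and mCherryLow (limma adjusted p = 0.00398 and 0.000972). Col5a2, another collagen chain, rose by 1.85 against mCherryHigh and 2.76 against mCherryLow (limma adjusted p = 0.0188 and 0.00672). The mesenchymal cadherin Cdh11 rose by 2.13 and 2.12 in the same comparisons (limma adjusted p = 0.0342 and 0.0236), calls held under 9 and 10 of 17 alternatives.

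In the other direction, the fibronectin receptor chain Itga5 averaged 65.5 ± 32.7 CPM in DTC, 262 ± 121 in mCherryHigh and 276 ± 23.1 in mCherryLow, and fell against both (-2.01 and -2.21, limma adjusted p = 0.0164 and 0.0023). Fibronectin itself, Fn1, averaged 305 ± 35.7, 1216 ± 408 and 751 ± 279 CPM in DTC, mCherryHigh and mCherryLow, and fell against both (-1.94 and -1.24, limma adjusted p = 0.00403 and 0.0143). The Fn1 call against mCherryLow was lost with quantile normalization, without DTC 1 and without mCherryLow 1, with adjusted p of up to 0.23, and the Itga5 call against mCherryHigh held under 14 of 17 alternatives. The matrix protein Tnc fell by 1.70 against mCherryHigh (limma adjusted p = 0.00531). Vim, the intermediate filament used as a mesenchymal marker, averaged 1490 ± 334, 1234 ± 30.8 and 1892 ± 474 CPM in DTC, mCherryHigh and mCherryLow, and Cdh2, N-cadherin, averaged 78.7 ± 14.7, 115 ± 29.3 and 134 ± 82.7 CPM in those groups. Neither passed in any comparison.

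**Figure D4:**
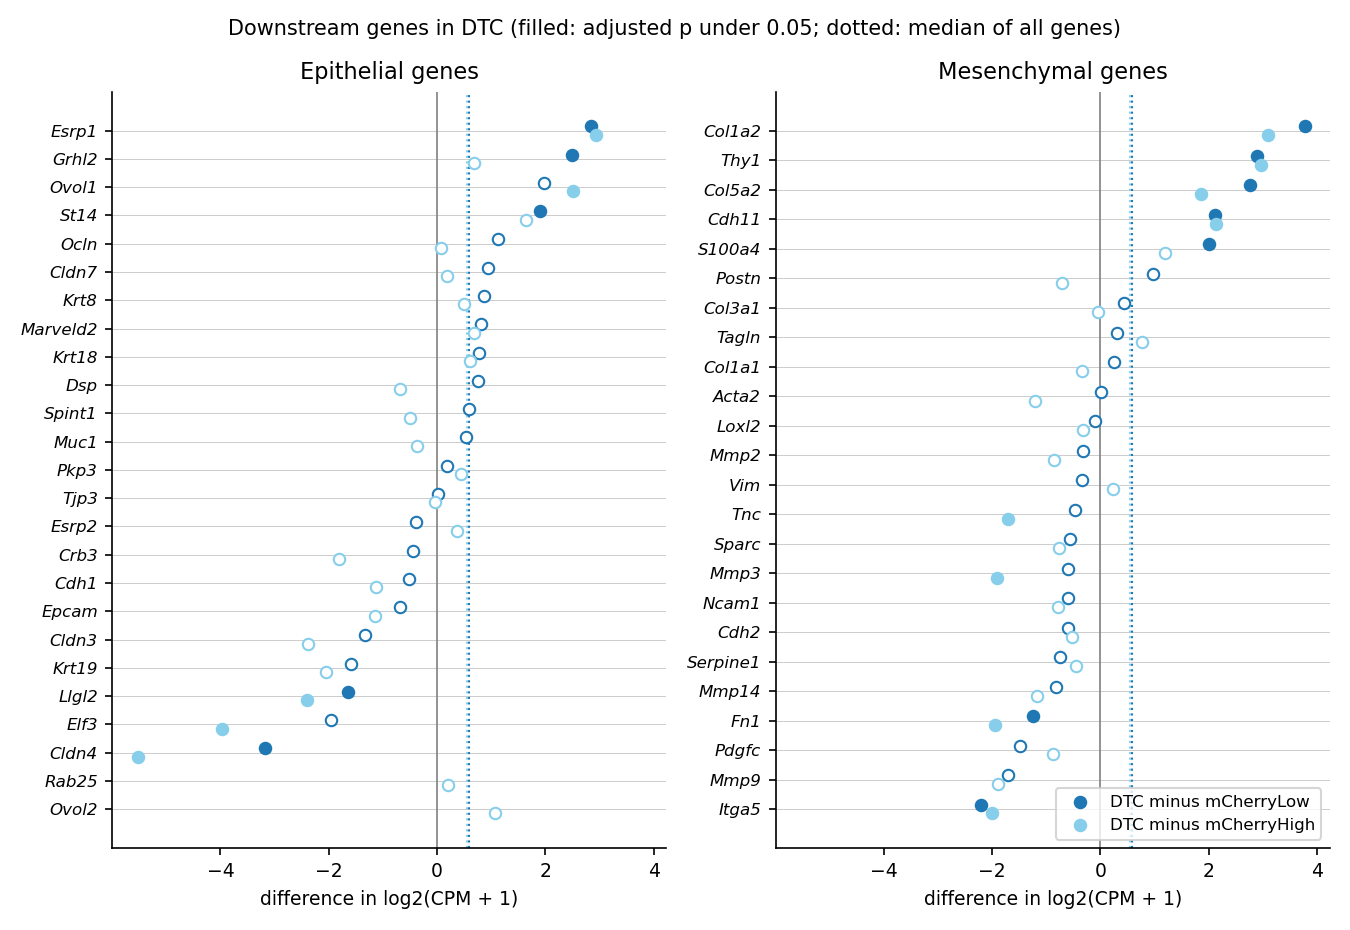
Difference in log2(CPM + 1) (horizontal axis) of the epithelial and mesenchymal genes in DTC minus mCherryLow and DTC minus mCherryHigh, with filled points for a limma adjusted p under 0.05 and dotted lines for the median of all genes. Filled points lie on both sides of 0 in both lists, from Cldn4 at -5.53 to Esrp1 at 2.94 and from Itga5 at -2.21 to Col1a2 at 3.77, and with quantile normalization no epithelial gene was called higher.

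Some markers of other cell types were, like Prrx1, higher in DTC. The 14 fibroblast markers summed to 196 to 387 CPM in DTC, 149 to 181 CPM in mCherryHigh and 77.0 to 159 CPM in mCherryLow. Of 13 tested, 7 rose and 0 fell in DTC against mCherryLow, and 6 rose and 1 fell against mCherryHigh, where 34.2% and 23.0% of all genes were called higher. Without DTC 3, 5 of 11 rose and 1 fell against mCherryLow, and 2 of 13 rose and 1 fell against mCherryHigh, where 3 rose without mCherryHigh 6. Inmt and Dpt reached the filter against mCherryLow through the DTC libraries alone, and drop out when a DTC library is left out. Scara5, a ferritin receptor of lung fibroblasts, had 45.7, 23.4 and 32.5 CPM in DTC 1, 2 and 3 and at most 4.39 CPM elsewhere (3.37 against mCherryLow, limma adjusted p = 0.000923). Fibroblast genes that overlapped between groups included Col1a1, at 58.6, 11.2 and 23.8 CPM in DTC 1, 2 and 3, 23.3, 29.1 and 49.2 CPM in mCherryHigh 1, 5 and 6, and 35.1, 11.4 and 22.5 CPM in mCherryLow 1, 5 and 6. Pdgfra averaged 16.5 ± 8.08, 10.0 ± 3.33 and 6.32 ± 4.16 CPM in DTC, mCherryHigh and mCherryLow and did not pass. Fbln1 was the marker that fell against mCherryHigh (-1.80, limma adjusted p = 0.0356), a call held under 11 of 17 alternatives. It had 6.09, 7.79 and 23.8 CPM in DTC 1, 2 and 3 and 43.5, 34.7 and 40.4 CPM in mCherryHigh 1, 5 and 6. In mCherryLow 1, 5 and 6 it had 16.1, 31.4 and 54.3 CPM. No fibroblast marker was at 0 throughout a group. In bulk RNA, fewer cells of a type and less RNA per cell cannot be told apart, and the part of fibroblast RNA in the Prrx1 levels was not tested.

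The 12 pericyte and smooth muscle markers summed to 127 to 231 CPM in DTC, 102 to 113 CPM in mCherryHigh and 48.8 to 82.9 CPM in mCherryLow, with 5 of 12 rising in DTC against mCherryLow and 4 against mCherryHigh, or 2 in each without DTC 3. Over all genes tested, 34.2% and 23.0% were called higher in these comparisons. Against mCherryHigh, 8 of the 12 differences were above 0 and 4 below, with none called lower. Acta2 was below, at 7.61, 7.79 and 10.8 CPM in DTC 1, 2 and 3. It was at 26.4, 20.5 and 17.4 CPM in mCherryHigh 1, 5 and 6. Cspg4, the NG2 proteoglycan of pericytes, averaged 17.4 ± 11.2, 8.46 ± 2.32 and 2.62 ± 0.190 CPM in DTC, mCherryHigh and mCherryLow. The 20 macrophage and monocyte markers, beside which Zeb2 is to be read, summed to 4037 to 9122 CPM in DTC, 541 to 882 CPM in mCherryHigh and 528 to 912 CPM in mCherryLow. Of these 14 rose against mCherryLow and 12 against mCherryHigh, and the 15 endothelial markers, with sums of 312 to 709, 60.7 to 71.5 and 39.5 to 55.4 CPM in DTC, mCherryHigh and mCherryLow, had 13 and 8 rising (7 against mCherryLow without DTC 1). Some of these genes, such as C1qa and Ednrb, reached the filter against mCherryLow through the DTC libraries alone. Csf1r averaged 35.8 ± 1.98, 13.7 ± 10.2 and 8.53 ± 0.565 CPM and Pecam1 43.7 ± 13.1, 9.37 ± 1.54 and 4.47 ± 2.12 CPM in DTC, mCherryHigh and mCherryLow. The T and NK cell markers summed to 126 to 488 CPM in DTC, 28 to 32.9 CPM in mCherryHigh and 18.5 to 34.6 CPM in mCherryLow, highest in DTC 3, with Cd3e at 27.1 CPM there. Their part in the levels of Zeb2 and Snai1 was not tested.

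The ductal tumour markers, which check the labelled cell type, summed to 1486 to 8753 CPM in DTC, with the lowest in DTC 3, to 4252 to 8999 CPM in mCherryHigh and to 4238 to 4778 CPM in mCherryLow. Of 14 tested, 2 rose and 1 fell in DTC against mCherryLow, and 1 rose and 1 fell against mCherryHigh. Over all genes, 34.2% rose and 8.87% fell against mCherryLow, and 23.0% and 7.19% against mCherryHigh. Cldn4 fell in both comparisons and Onecut2 rose in both. Onecut2 had 296, 236 and 360 CPM in DTC 1, 2 and 3 and at most 101 CPM elsewhere. In DTC 1, 2 and 3, the ductal markers summed to 6842, 8753 and 1486 CPM and the fibroblast markers to 387, 196 and 377 CPM. Prrx1 was at 109, 52.6 and 92.0 CPM in these libraries, and which cells held its RNA was not tested. Without DTC 3, Prrx1 rose by 3.81 against mCherryLow (limma adjusted p = 0.00429) and by 3.66 against mCherryHigh (limma adjusted p = 0.0137).

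**Figure D5:**
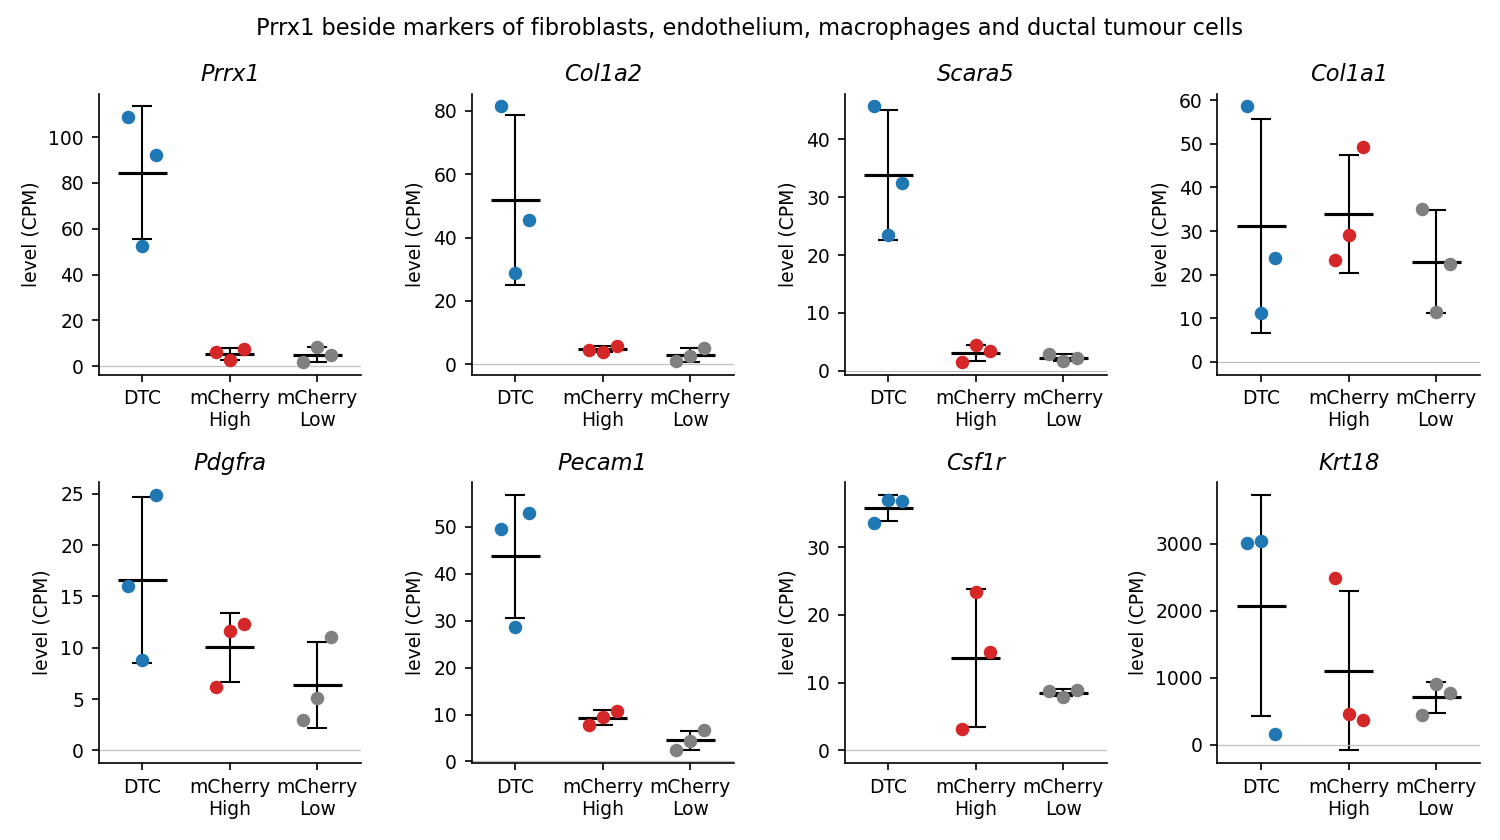
Level in CPM (vertical axis, a scale of its own per panel) of Prrx1, the fibroblast genes Col1a2, Scara5, Col1a1 and Pdgfra, the endothelial gene Pecam1, the macrophage gene Csf1r and the keratin Krt18 in the DTC, mCherryHigh and mCherryLow libraries, with points for libraries, a line for the mean and bars for the SD. Col1a2, Scara5, Pecam1 and Csf1r share with Prrx1 that every DTC point is above all others, Col1a1 and Pdgfra overlap between groups, and Krt18 is at 169 CPM in DTC 3. Over all genes tested, every DTC library was above every mCherryLow library for 39.0%, and above every mCherryHigh library for 31.4%.

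The genes most like each factor over the 9 libraries were taken by Pearson correlation of log2(CPM + 1) among 12299 genes, as a description that rests on shared groups and depth. Those of Prrx1 were Gria1, a glutamate receptor subunit (0.995), Pdgfd, a platelet-derived growth factor (0.990), and Fbxl22 (0.990). Gria1 averaged 64.9 CPM in DTC, 4.28 CPM in mCherryHigh and 4.02 CPM in mCherryLow, and Pdgfd averaged 70.1, 4.05 and 2.53 CPM in those groups. Those of Zeb2 were Auh, a mitochondrial hydratase (0.956), Ccdc50 (0.951) and Trim30a (0.948), each highest in DTC 3, as Zeb2 was.

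For Snai2 they were the galactosyltransferase B4galt2 (0.994), the kinase Chuk (0.959) and Eaf1 (0.958), each lowest in DTC 1, DTC 3 and mCherryHigh 1, as Snai2 was. Snai1 was most like the adaptor Lat2 (0.964), Ankra2 (0.916) and the chemokine Ccl25 (0.913), each highest in DTC 3. Twist2 was most like the phosphatase Dusp8 (0.939), the retinol carrier Rbp4 (0.924) and Apol9a (0.921), all at 1.55 CPM, 1 read, in mCherryHigh 1.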

How the data were processed

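Total RNA (RNAqueous-Micro kit) was made into libraries with SMART-seq v4 and Nextera XT, per the labels' protocols. Reads were mapped to mm9, per the submitters' processing notes. Aligner and counter: not given in the sources used here. Per the file as the authors deposited it, values are CPM for 24012 genes in 9 libraries, with 0 columns left unmatched. All were whole multiples of 1 read within 0.01 read, which gave back reads and totals.

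Genes that reached 1 CPM in 3 or more of the 6 libraries compared were tested with limma 3.58.1 (R 4.3.3) on log2(CPM + 1), two-sided, with a mean-variance trend, on group alone, adjusted by Benjamini-Hochberg over all genes tested at 0.05. A gene low in one group could be tested through the libraries of the other group alone, so the numbers tested in a list lean to genes high in a group. Fold changes on this scale understate those of low genes. The procedure was tested on simulated data. Genes named are all factors, up to 4 per list with the smallest p, fixed partners and markers, and the 3 most correlated genes (mean of at least 5 CPM, predicted genes passed over). Part of the genotype label is not reported here. Crb3, Cdh11 and Krt18 were named after their values were seen. The factors and lists were chosen with earlier results of these data known. Promoters are from RefSeq (GRCm38.p6), and lengths and unique windows from GENCODE vM21, a later build than mm9. The titles of mCherryHigh and mCherryLow share letters and replicate numbers, but the labels do not say that they pair. Deviations from the group mean correlated at -0.20, -0.02 and 0.27 for like numbers, and at -0.44 to 0.33 for unlike numbers. With 3 libraries in a group, of unlike depth, this cannot decide whether they pair. Other pseudocounts, filters, scalings, fits and left-out libraries were tried, and edgeR 4.0.16, DESeq2 1.42.0, thinning and list counts were added after seeing the data.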

Additional observations from a re-analysis of the deposited data

How the results depend on the processing

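Of 262 alternative values of member differences, 245 kept their direction and side of the threshold, 4 passed anew and 13 reversed. Prrx1 kept its call under all 17 alternatives in each DTC comparison, at 3.24 to 4.28 against mCherryLow (limma, edgeR or DESeq2 adjusted p of 5e-08 to 0.00787) and 3.22 to 4.06 against mCherryHigh (adjusted p of 4.24e-08 to 0.0191). The cause was not tested for any of the changes that follow. In mCherryHigh minus mCherryLow, Prrx1 reversed to -0.17 with quantile normalization, -0.06 with the code series as a term, -0.13 with edgeR, -0.11 with DESeq2, -0.11 without mCherryHigh 6 and -0.30 without mCherryLow 1, Snai1 to 0.08 without mCherryHigh 1, and Twist2 to -0.12 without mCherryHigh 6 and -0.63 without mCherryLow 1. In DTC minus mCherryLow, Snai1 reversed to -1.22 with quantile normalization and -0.33 without DTC 3, and Zeb2 to -0.02 with edgeR. In DTC minus mCherryHigh, Snai1 reversed to -0.35 with quantile normalization. Members called against mCherryLow numbered 2 with quantile normalization and 2 with median-of-ratios scaling (Prrx1 and Snai2), and 1 to 2 with a library left out (2 without DTC 2, adding Snai2, and 2 without mCherryLow 6, adding Twist2). Genes called against mCherryLow numbered 4300 with quantile normalization and 3628 to 7008 with a library left out (3628 without DTC 1 and 4387 without DTC 3). Against mCherryHigh they numbered 3150 with quantile normalization and 2538 to 6997 with a library left out (2538 without DTC 1, 3265 without DTC 3, 3588 without mCherryHigh 5 and 3911 without mCherryHigh 6). DESeq2 called 148 genes between mCherryHigh and mCherryLow, against 0 by limma. With the replicate block, 0 genes and 0 members were called there, as without it (1342 genes at an unadjusted p under 0.05). With a library left out, the differences just named ran, for mCherryHigh minus mCherryLow, from -1.06 to 0.08 (Snai1), -0.63 to 1.21 (Twist2) and -0.30 to 0.53 (Prrx1), and from -0.33 to 1.01 for Snai1 in DTC minus mCherryLow. No paired analysis was possible for DTC because its libraries share fewer than 2 numbers with either sorted group. A few reads per library limit Snai1, Foxc2 and Twist1, and a 0 in mCherryHigh 1 allows up to 4.66 CPM.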

Other observations

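Some genes of further cell types were also higher in DTC. Over all genes tested, 34.2% were called higher against mCherryLow and 23.0% against mCherryHigh. The 12 markers of alveolar and airway epithelium summed to 191 to 533 CPM in DTC, 21.7 to 50.1 CPM in mCherryHigh and 9.67 to 30.3 CPM in mCherryLow, with 8 of 10 tested rising against mCherryLow and 8 of 11 against mCherryHigh. Without DTC 1 these were 4 of 6 and 3 of 6, and 3 of 7 rose against mCherryHigh without DTC 2 or DTC 3. Sftpc, Sftpb and Scgb3a2 reached the filter against mCherryLow through the 3 DTC libraries alone, as did the neutrophil genes Csf3r and Retnlg. Such genes were tested because they were high in DTC, and they drop out when a DTC library is left out. The counts therefore do not show what share of a list rose. Neutrophil markers summed to 90.6 to 160 CPM in DTC, 18.9 to 30.5 CPM in mCherryHigh and 7.14 to 17.1 CPM in mCherryLow, with 6 of 7 and 4 of 7 rising against mCherryLow and mCherryHigh (3 of 5 against mCherryLow without DTC 1 or DTC 2, and 2 of 7 against mCherryHigh without DTC 3). B cell markers summed to 51.6 to 109, 12.4 to 16.7 and 8.94 to 14.1 CPM in DTC, mCherryHigh and mCherryLow, with 2 of 3 rising against mCherryLow and 2 of 5 against mCherryHigh, and 1 against mCherryHigh without any one DTC library. Erythroid markers summed to 73.8 to 232, 4.08 to 35.7 and 4.04 to 21.0 CPM in those groups, with 2 of 4 rising in either comparison, 1 of 3 against mCherryHigh without DTC 3, and 1 of 4 in both with edgeR. Mesothelial markers overlapped in their sums, at 102 to 470 CPM in DTC, 6.21 to 142 CPM in mCherryHigh and 9.78 to 243 CPM in mCherryLow, with 2 of 6 and 1 of 6 rising, no more than the shares over all genes. Msln, also on the ductal tumour list, made up most of the sum in DTC 1 and 2, mCherryHigh 5 and mCherryLow 1 and 5. Lrrn4 had 17.5, 38.5 and 42.2 CPM in DTC 1, 2 and 3 and at most 1.46 CPM elsewhere. It rose by 4.13 against mCherryLow and 4.36 against mCherryHigh (limma adjusted p = 0.000638 and 0.00223). In each comparison 5 of the 6 differences were above 0 and 1 below. None of these lists had a gene that fell. None of the 10 microRNA genes set against the factors had a value here, and their sequences are not shown.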
